A study of Homo sapiens with 12 samples.

Results

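The genes described here take up, store, export and sense iron: TF, TFRC, STEAP3, SLC11A2, FTH1, FTL, NCOA4, SLC40A1, ACO1 and IREB2. They were chosen by name as the core genes of cellular iron handling, at a time when earlier results of these counts, among them the level of TF, were known. All 10 had a row in the deposited table of 63152 genes, and 8 had enough counts to enter the fit. Because of how the set was chosen, its values are a description: the calls of the fit over all genes are listed for its members without p-values, and nothing is supported with them. The question addressed was how the level of each gene differed between control cultures and cultures given acriflavine at 2.5 or 5 µM.

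Iron circulates bound to transferrin and enters cells when the transferrin receptor carries it into an acidic compartment, where it is reduced and moved into the cytosol. There it is used for heme and iron-sulfur clusters, stored in ferritin, or exported through ferroportin. A pair of iron regulatory proteins binds a short RNA hairpin, the iron-responsive element, when iron is scarce. Bound near the start of a ferritin mRNA, they block its translation, and bound near the end of the transferrin receptor mRNA, they protect it from decay. The liver makes most of the transferrin in blood and is a main store of iron.

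The cells were HepG2S1, a sorafenib-resistant derivative of HepG2, which is a human hepatoblastoma line. Per the labels' protocols it was selected over months under rising sorafenib, and whether it is a single clone is not stated. Near-confluent cultures of all groups were kept in Williams Medium E with fetal calf serum, insulin and dexamethasone. Of the 4 control cultures one label says that they got nothing, and the treatment protocol that they got the vehicle DMSO. The other 4 and 4 received acriflavine, a mixture of acridine dyes known to intercalate into DNA and to block dimerisation of hypoxia-inducible factor 1, at 2.5 or 5 µM for 24 h. Poly-A RNA was sequenced as stranded libraries, and the labels call the 4 libraries of a group biological replicates.

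Each control library held between 11891849 and 14024568 counts, each 2.5 µM library between 13095641 and 15115510, and each 5 µM library between 10733567 and 15116842. Levels are given as CPM, read counts relative to the size of the library, which was TMM-scaled to allow for differences in RNA composition. CPM does not allow for transcript length, so levels are compared between groups and not between genes. The labelled liver origin was checked against 11 hepatocyte markers. All 11 were under 1 CPM in the controls, and ALB, AFP and FOXA2 were among those at 0 counts there. The 5 bile duct markers summed to 3622 to 4074 CPM per control library, 3525 to 3991 at 2.5 µM and, at the higher dose, 1486 to 1783. Keratins carried that sum, with KRT7 at a mean of 3612 CPM in the controls and 1580 at 5 µM and KRT19 at 203 and 51.4, while SOX9 (1.73 and 15.8), CFTR (0.0395 and 3.93) and EPCAM (3.57 and 5.88) were higher at 5 µM. The 5 fibroblast markers summed to 619 to 769, 548 to 605 and 557 to 599 CPM. DCN (563 and 450) and LUM (119 and 82.1) carried that sum, while COL1A1 (22.6 and 30.9) and PDGFRB (4.51 and 16.4) were higher at 5 µM and COL1A2 was at or near 0. The part of either list in the levels below was not tested.

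The hairpins by which iron regulates these mRNAs are shown first, because they place FTH1, FTL and SLC40A1 on one side of the iron switch and TFRC on the other. They were located in GENCODE 29 transcripts (GRCh38) as a C, any 5 bases, CAGTG, a base other than G, and 5 bases able to pair with the 5 after the C. Only the transcript's own strand was searched, and no other motif was searched with it. Capitals mark the bulged C and the 6-base loop.
FTH1 5′ UTR: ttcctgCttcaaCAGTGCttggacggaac
FTL 5′ UTR: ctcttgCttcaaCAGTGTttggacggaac
SLC40A1 5′ UTR: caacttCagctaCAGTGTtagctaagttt
TFRC 3′ UTR, site 1: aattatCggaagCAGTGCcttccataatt
TFRC 3′ UTR, site 2: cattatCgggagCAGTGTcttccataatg
TFRC 3′ UTR, site 3: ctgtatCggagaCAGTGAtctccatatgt
TFRC 3′ UTR, site 4: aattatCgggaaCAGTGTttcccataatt

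The FTH1 hairpin lies at chr11:61967574-61967602 on the minus strand, in exon 1 of 4. The FTL hairpin lies at chr19:48965335-48965363 on the plus strand, also in exon 1 of 4. That of SLC40A1 is at chr2:189580661-189580689 on the minus strand, in exon 1 of 8. The TFRC hairpins that the pattern found lie in the last of its 19 exons, on the minus strand, at chr3:196050979-196051007, chr3:196050575-196050603, chr3:196050510-196050538 and chr3:196050463-196050491, within 545 bases. Hairpins of TFRC outside the pattern would not be among them. The ferritin hairpins matched each other at 26 of 29 bases. TFRC sites 1, 2 and 4 matched each other at 24 or 25 of 29 bases, and site 3 matched them at 18 or 19. A ferritin hairpin and a TFRC hairpin shared 9 to 13 of 29 bases.

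The pattern was rare among 19669 protein-coding genes: 26 (0.132%) held it in a 5′ UTR, 104 (0.529%) in a 3′ UTR and 214 (1.09%) anywhere in the mRNA. It occurred in 7 of 8 protein-coding transcripts of FTH1, in the single one of FTL, in 3 of 4 of TFRC and in 1 of 5 of SLC40A1. It also occurred once in the 3′ UTR of 1 of 3 TF transcripts, which is given as a match of letters only. No transcript of SLC11A2, IREB2, ACO1, NCOA4 or STEAP3 held it. The pattern asks for 5 unbroken pairs, so a hairpin with an unpaired base there is missed. Nor was the pattern found in EPAS1 or CDC42BPA, which are reported to carry an element. Its absence from a gene, SLC11A2 among them, therefore does not show that the gene lacks an element. The counts are per gene, so transcripts with and without a hairpin cannot be told apart in what follows.

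TF passed the low count filter only through its 5 µM libraries, so it is left out of the counts that follow and described on its own. Of the other 7 tested genes, 6 were past the threshold as lower at 5 µM against control (TFRC, STEAP3, SLC11A2, FTH1, ACO1 and IREB2), and FTL was not past it. The threshold was an adjusted p of 0.05 in edgeR's quasi-likelihood test, and 38.7% of all 16839 genes tested were past it as higher and 39.4% as lower. The 4 and 4 libraries did not overlap for 6 of the 7, against 70.8% of all genes tested. At 2.5 µM against control, 0 genes were past it as higher and 5 as lower (all genes: 30.7% and 28.5%), and 5 did not overlap (50.5%). Between 2.5 and 5 µM, 1 was higher and 5 lower (33.6% and 34.8%), and 6 did not overlap (62.1%). The median log2 fold change of the 7 was -0.58 at 5 µM, -0.41 at 2.5 µM and -0.29 from 2.5 to 5 µM, beside -0.01, 0.02 and -0.01 over all genes tested. These counts describe the set and carry no further weight.

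**Figure D1:**
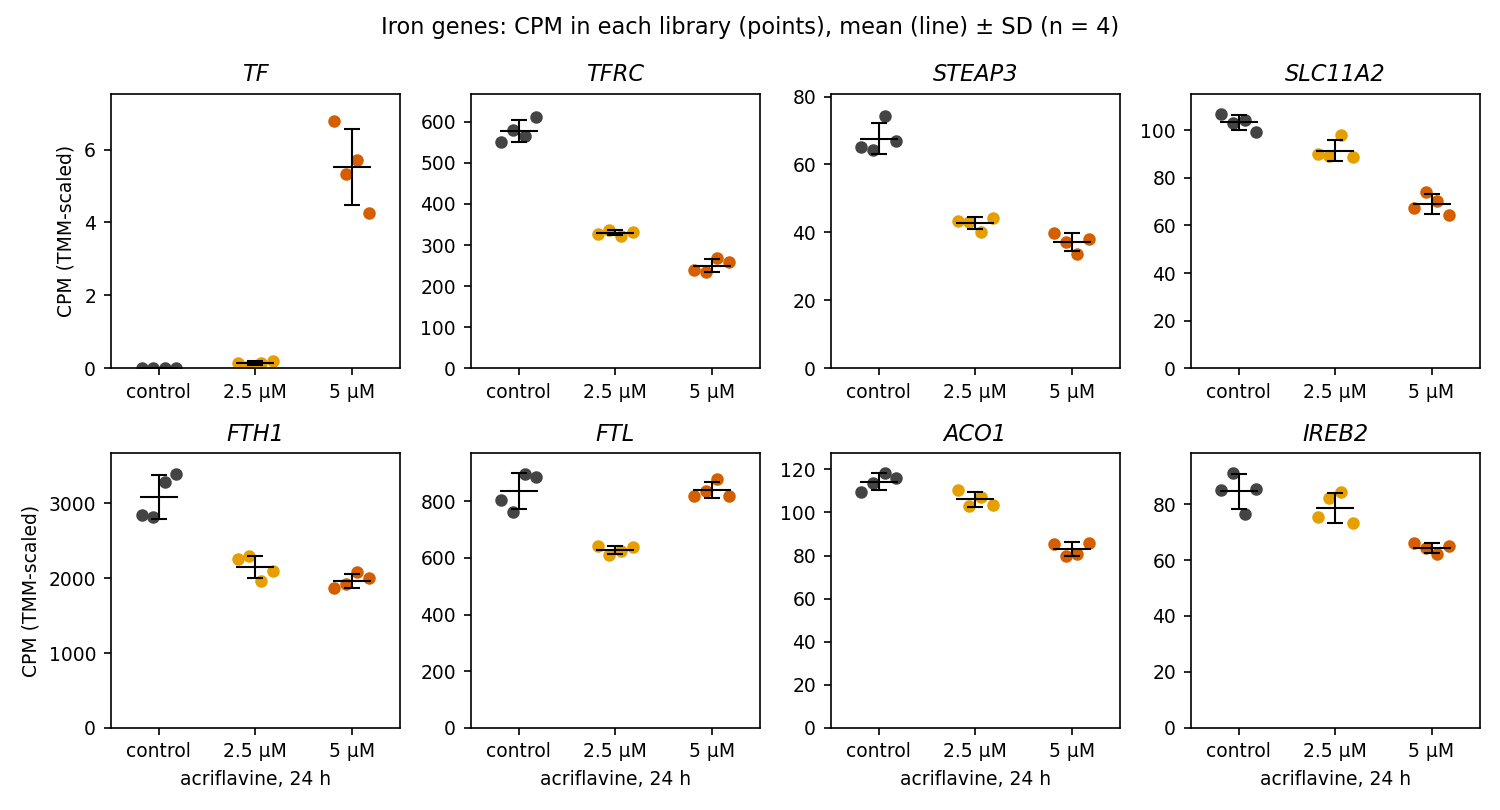
Each panel plots 1 iron gene: CPM on TMM-scaled library sizes (vertical axis, from 0) in control cultures and at 2.5 and 5 µM acriflavine for 24 h, with 1 point per library and the mean ± SD of the 4 libraries. TF is at 0 in the 4 controls and between 4.25 and 6.77 CPM at 5 µM, TFRC steps down at each dose, and FTL is lowest at 2.5 µM.

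TF encodes transferrin, the carrier that holds ferric iron in plasma (ENSG00000091513). Its row held 0 counts in each of the 4 controls. At 2.5 µM the libraries held 2, 1, 2 and 3 counts, and at 5 µM they held 76, 62, 78 and 68. The groups did not overlap, and nearly all of the gene's 292 counts came from the 5 µM libraries. In CPM the 5 µM libraries were at 6.77, 5.32, 5.71 and 4.25, with a mean of 5.52 ± 1.04 (SD, n = 4). The 2.5 µM libraries were at 0.151, 0.0703, 0.154 and 0.202 CPM, with a mean of 0.144 ± 0.0545 (SD, n = 4). Genes with at least 5 counts were more numerous at 5 µM in general, without allowance for library size. They numbered 16690 to 17135 per control library, 17295 to 17531 at 2.5 µM and 18129 to 18977 at 5 µM.

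Since TF was at 0 in the controls, its level is set against a floor of 3 counts over the 4 control libraries (0.0606 CPM). The observed TF level was 89.0-fold above that floor at 5 µM and 2.38-fold above it at 2.5 µM. The floor bounds the control side only, and the treated counts are taken as exact. With 8 counts at 2.5 µM, the 2.38-fold is therefore not a lower bound of the difference. The 5 µM level was 37.3 times the 2.5 µM level, with an exact 95% interval of 18.7 to 87.3 that covers counting error only. TF thus stayed at a few CPM even where it was highest. In bulk RNA, more RNA per cell and more cells that make it cannot be told apart.

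TF shares 112 exon bases on the same strand with SRPRB, which encodes a subunit of the signal recognition particle receptor, and 191 with the pseudogene TFP1. SRPRB was at 157 ± 7.59 CPM in the controls, 148 ± 4.54 at 2.5 µM and 106 ± 1.45 at 5 µM (SD, n = 4). SRPRB was lower at 5 µM than in the controls, by 0.57 ± 0.05 (SE) on the log2 scale (edgeR adjusted p = 7.36e-13). No row carried the name TFP1. Whether reads of SRPRB or TFP1 entered the TF row was not tested. Sums of markers of several cell types were, like TF, higher at 5 µM while staying low, each carried by a few genes. The 11 hepatocyte markers summed to 0.953 to 1.86 CPM per control library, 0.985 to 2.47 at 2.5 µM and, at the higher dose, 4.10 to 6.89, mostly from FGB and APOB. The 5 endothelial markers summed to 0.169 to 0.537, 0.616 to 1.36 and 7.13 to 8.69 CPM. TEK made up a mean of 6.24 CPM of this at 5 µM and VWF 1.65, while PECAM1 held 0 counts in all 12 libraries, CDH5 1 and KDR 6. The 5 blood markers summed to 0.254 to 0.625, 0.605 to 0.925 and 2.4 to 3.0 CPM. PTPRC carried the difference, at a mean of 0.0391 CPM in the controls and 2.27 at 5 µM, while CD68 (0.138 and 0.0928) was lower at 5 µM, HBB held 1 count and CD3E 0 in all 12 libraries. The part of any of these cells in the TF level was not tested.

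TFRC encodes transferrin receptor 1, which takes up iron-loaded transferrin (ENSG00000072274). The controls were at 551, 580, 565 and 612 CPM. At 2.5 µM the libraries were at 326, 336, 323 and 333 CPM, and at 5 µM at 240, 234, 268 and 258 CPM. All 3 groups stood apart, in the order control, 2.5 µM, 5 µM. The mean level went from 577 ± 26.3 to 330 ± 5.86 and 250 ± 15.4 CPM (SD, n = 4). TFRC was 1.75-fold lower than control at 2.5 µM (log2 fold change -0.81 ± 0.05, SE) and 2.31-fold lower at 5 µM (-1.21 ± 0.05). From 2.5 to 5 µM it was 1.32-fold lower (-0.40 ± 0.05). Of all genes tested, 2356 (14.0%) were past the threshold as lower in all 3 comparisons, as TFRC was.

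STEAP3 encodes a reductase that turns ferric into ferrous iron in the endosome, the step after uptake by the receptor (ENSG00000115107). Its control libraries were at 65.2, 64.3, 74.3 and 66.8 CPM. The 2.5 µM libraries were at 43.4, 43.1, 40.1 and 44.4 CPM, and those at 5 µM at 39.9, 37.2, 33.8 and 38.0 CPM. No groups overlapped, though 2.5 and 5 µM lay close. STEAP3 was 1.58-fold lower than control at 2.5 µM (log2 fold change -0.66 ± 0.06, SE) and 1.82-fold lower at 5 µM (-0.86 ± 0.06). The step from 2.5 to 5 µM was -0.20 ± 0.07. With scaling by library size alone this step was -0.11, and without the third 5 µM library it was -0.15, in both cases no longer past the threshold. STEAP3 shares 500 exon bases with the antisense gene STEAP3-AS1, whose row held 4 counts over all libraries.

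SLC11A2 encodes DMT1, the transporter that moves ferrous iron out of endosomes and across the gut epithelium (ENSG00000110911). The controls were at 107, 103, 104 and 99.2 CPM. The 2.5 µM libraries were at 89.8, 89.1, 98.2 and 88.6 CPM, and the 5 µM libraries at 67.2, 73.9, 70.3 and 64.4 CPM. The groups did not overlap, although the highest 2.5 µM library came within about 1 CPM of the lowest control. SLC11A2 was 1.13-fold lower than control at 2.5 µM (log2 fold change -0.18 ± 0.05, SE) and 1.5-fold lower at 5 µM (-0.58 ± 0.05). Most of the difference lay between 2.5 and 5 µM, where it was -0.41 ± 0.05, while for TFRC and STEAP3 most lay between control and 2.5 µM.

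**Figure D2:**
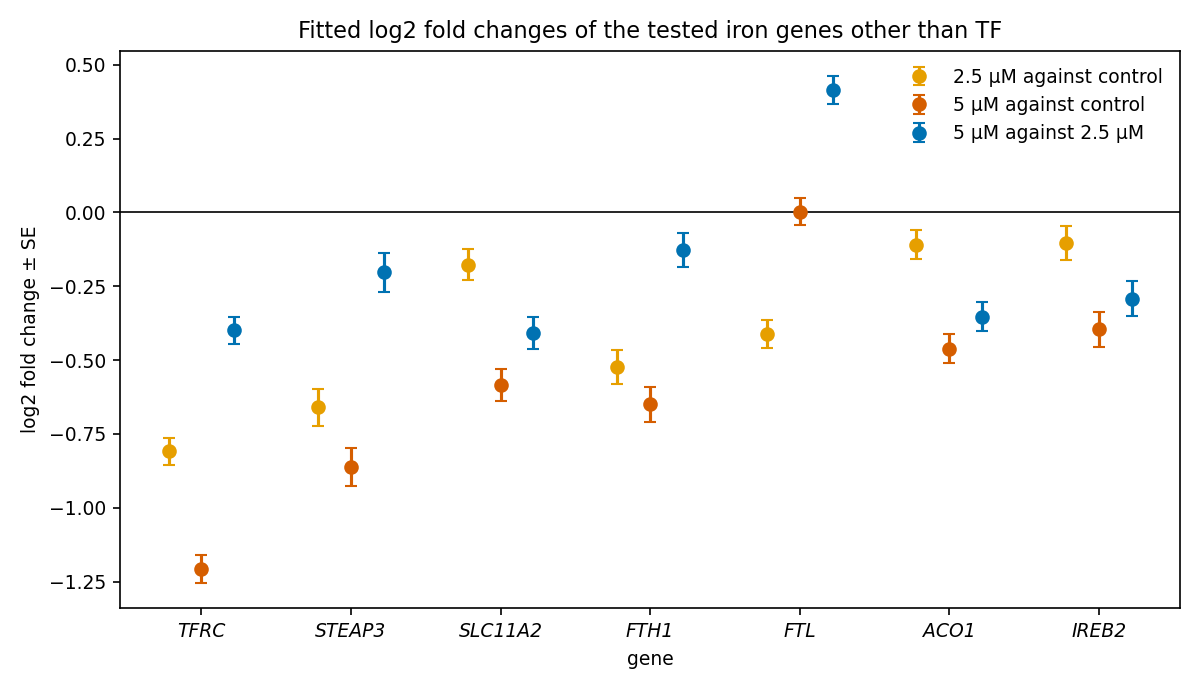
Fitted log2 fold change ± SE (vertical axis) of the 7 tested iron genes other than TF (horizontal axis), with 1 point for each of the 3 comparisons of 4 against 4 libraries. All genes but FTL lie below 0 at 5 µM against control, from -1.21 for TFRC to -0.40 for IREB2, and FTL is at 0.00 there, -0.41 at 2.5 µM and 0.42 from 2.5 to 5 µM.

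FTH1 encodes the ferritin heavy chain, the subunit that oxidises iron as it enters the storage shell (ENSG00000167996). The controls were at 2852, 2823, 3292 and 3389 CPM. At 2.5 µM they were at 2252, 2293, 1965 and 2093 CPM, and at 5 µM at 1865, 1926, 2084 and 1997 CPM. Both treated groups lay below all controls and overlapped each other. FTH1 was 1.44-fold lower than control at 2.5 µM (log2 fold change -0.52 ± 0.06, SE) and 1.57-fold lower at 5 µM (-0.65 ± 0.06). The step from 2.5 to 5 µM was -0.13 ± 0.06 and not past the threshold, while 8 of 20 other settings placed it past.

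FTL encodes the ferritin light chain, the subunit that favours mineralisation of the iron core (ENSG00000087086). The controls were at 804, 764, 896 and 885 CPM. The 2.5 µM libraries were at 643, 610, 624 and 637 CPM, and the 5 µM libraries at 819, 836, 879 and 820 CPM. The 2.5 µM group lay below both others, and the 5 µM values lay within the control range. FTL was thus 1.33-fold lower than control at 2.5 µM (log2 fold change -0.41 ± 0.05, SE) and 1.33-fold higher at 5 µM than at 2.5 µM (0.42 ± 0.05). At 5 µM against control the difference was 0.00 ± 0.05. With scaling by library size alone it was 0.14 and past the threshold, while that scaling also moved the median of all genes from -0.01 to 0.12. FTL's pattern of calls, lower at 2.5 µM, higher again from there and not past the threshold at 5 µM, was shared by 456 of 16839 genes tested (2.71%).

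The ferritin chains therefore differed from each other in their dose pattern, which a ratio within each library shows without any scaling between libraries. The FTH1 to FTL count ratio was 3.55, 3.70, 3.67 and 3.83 in the controls. It was 3.50, 3.76, 3.15 and 3.28 at 2.5 µM and 2.28, 2.30, 2.37 and 2.44 at 5 µM. The control and 2.5 µM ratios overlapped, and all 5 µM ratios lay below both, with means of 3.69 ± 0.117, 3.42 ± 0.265 and 2.35 ± 0.0702 (SD, n = 4). The TFRC to FTL count ratio stepped down at each dose, from 0.692 ± 0.0530 to 0.524 ± 0.0186 and 0.298 ± 0.0145 (SD, n = 4). The TFRC to FTH1 ratio went from 0.188 ± 0.0148 to 0.154 ± 0.00949 and 0.127 ± 0.00352 (SD, n = 4). These ratios are of counts and are not corrected for transcript length.

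**Figure D3:**
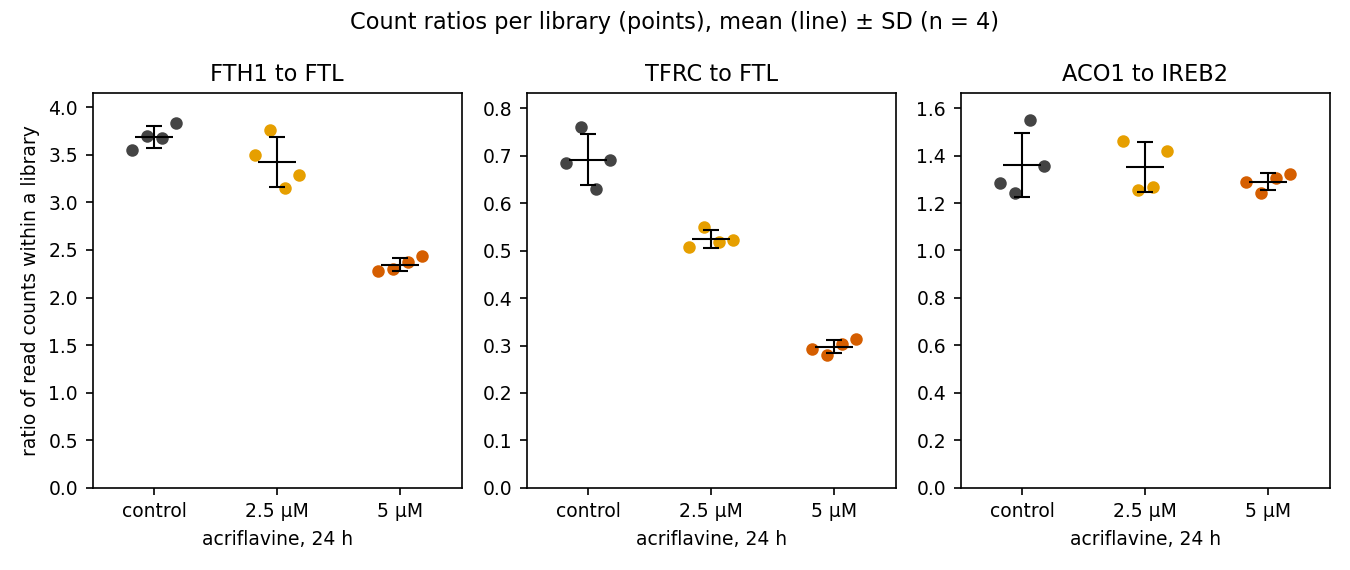
Ratio of the read counts of 2 genes within a library (vertical axis, from 0) in the control, 2.5 and 5 µM cultures, with 1 point per library and the mean ± SD of 4 libraries. FTH1 to FTL is 3.55 to 3.83 in the controls and 2.28 to 2.44 at 5 µM, TFRC to FTL is lower at each dose, and ACO1 to IREB2 overlaps between all groups.

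Both ferritin genes have many processed copies that near-identical reads could be split between. The 25 rows named as FTH1 pseudogenes held 31749 counts, mostly in FTH1P8 (18367) and FTH1P7 (11738). They made up 7.16 to 8.43% of the FTH1 and pseudogene counts of a library. The 16 FTL pseudogene rows held 32052 counts, of which 31362 were in FTLP3, or 20.4 to 22.1% of the FTL and pseudogene counts of a library. The shares differed little between libraries, and with the pseudogene counts added the FTL difference at 5 µM was -0.01. FTH1 also shares 1267 exon bases with BEST1 on the opposite strand, an ion channel gene at 1.04 ± 0.285 CPM in the controls (SD, n = 4).

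NCOA4 encodes the receptor that delivers ferritin to lysosomes for breakdown (ENSG00000266412). The row that maps to its symbol held 0 counts in all 12 libraries, while 4 rows named as its pseudogenes held 2054 counts in all. Another 11163 rows, with 0.697% of the counts, had no symbol in the annotation used. Counts of NCOA4 could stand in one of these rows under another identifier, so the 0 is the value of this row and not the level of the gene.

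SLC40A1 encodes ferroportin, the known exporter of iron from cells and the target of the hormone hepcidin (ENSG00000138449). Its row held 2 counts in all, both in the third 2.5 µM library, and it was not tested. The other 11 libraries held 0. Over the group, 0 counts allow a level of up to 0.0606 CPM in the controls and 0.0570 at 5 µM, so no fold is given.

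ACO1 encodes iron regulatory protein 1, which is a cytosolic aconitase when it holds an iron-sulfur cluster (ENSG00000122729). The controls were at 109.5, 113, 118 and 116 CPM. The 2.5 µM libraries were at 110.4, 103, 107 and 104 CPM, and the 5 µM libraries at 85.4, 79.7, 80.9 and 86.0 CPM. The 5 µM libraries lay below all others, and the controls and the 2.5 µM libraries overlapped. ACO1 was 1.38-fold lower at 5 µM than in the controls (log2 fold change -0.46 ± 0.05, SE) and 1.28-fold lower than at 2.5 µM (-0.35 ± 0.05). At 2.5 µM the difference from control was -0.11 ± 0.05 and not past the threshold, while 9 of 19 other settings placed it past.

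IREB2 encodes iron regulatory protein 2, which is held in check by degradation when iron is plentiful (ENSG00000136381). The controls were at 85.2, 91.2, 76.3 and 85.5 CPM. The 2.5 µM libraries were at 75.5, 82.1, 84.4 and 73.1 CPM, and the 5 µM libraries at 66.2, 64.2, 62.1 and 64.9 CPM. As for ACO1, only the 5 µM libraries stood apart from the controls. IREB2 was 1.32-fold lower at 5 µM than in the controls (log2 fold change -0.40 ± 0.06, SE) and 1.22-fold lower than at 2.5 µM (-0.29 ± 0.06). At 2.5 µM the difference from control was -0.10 ± 0.06 and not past the threshold, and without the third control library it was -0.17 and past it. The ACO1 to IREB2 count ratio overlapped between all groups, at 1.36 ± 0.136 in the controls, 1.35 ± 0.105 at 2.5 µM and 1.29 ± 0.0348 at 5 µM (SD, n = 4).

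Beyond these genes, a list of 93 others that handle iron or heme was examined, of which 80 were tested. At 5 µM against control 33 rose and 35 fell, and 12 did not pass the test. At 2.5 µM 24 rose and 33 fell, and from 2.5 to 5 µM 31 rose and 34 fell. The median log2 fold change of the 80 was -0.06 at 5 µM, -0.03 at 2.5 µM and -0.07 from 2.5 to 5 µM. Of all genes tested, 38.7% rose and 39.4% fell at 5 µM, 30.7% and 28.5% at 2.5 µM, and 33.6% and 34.8% from 2.5 to 5 µM. The counts per role below are to be read beside these same shares and describe the listed genes only.

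Of the other genes of uptake and reduction, 11 of 14 were tested, and at 5 µM 4 rose, 5 fell and 2 did not pass, with a median of 0.11. CUBN, a receptor that binds transferrin among other ligands, went from 0.127 ± 0.112 CPM in the controls to 8.37 ± 1.14 at 5 µM (SD, n = 4), with 6 counts in all in the controls, 19 at 2.5 µM and 446 at 5 µM. Its level at 2.5 µM was 0.342 ± 0.135 CPM. Like TF, and as the 1 such gene of the 80, it passed the low count filter only through its 5 µM libraries, so its difference from control is a description, although it is counted among the 4 and the 33. STEAP1 passed the filter only through its control libraries, with 62 counts there, 19 at 2.5 µM and 18 at 5 µM. Its difference from control is therefore a description too, although it is counted among the genes that fell. CYBRD1, a ferric reductase, rose at each dose, from 24.2 to 40.7 and 58.6 CPM. HFE, the protein altered in hereditary hemochromatosis and a partner of the transferrin receptor, was at 28.4, 31.3 and 67.3 CPM. Its difference at 2.5 µM did not pass the test (edgeR adjusted p = 0.0915), and from there to 5 µM it rose by 1.11 ± 0.06 (SE) on the log2 scale (edgeR adjusted p = 2.35e-16). LRP2, CD163 and STEAP2 held 1, 1 and 4 counts and were not tested.

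Of the genes of export and oxidation, HEPHL1, a copper-dependent ferroxidase, rose from 0.749 ± 0.131 to 2.1 ± 0.380 CPM at 5 µM (SD, n = 4; edgeR adjusted p = 2.20e-05). HEPH and CP, the other ferroxidases of the list, held 3 and 13 counts over all libraries and were not tested. With SLC40A1 at 2 counts, the export genes other than HEPHL1 thus held very few counts in these cells.

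The genes that handle ferritin or turn over the regulatory proteins mostly fell at 5 µM, with 4 of 5 tested lower, none higher and a median of -0.53. PCBP1 and PCBP2 are chaperones that deliver iron to ferritin. PCBP2 was at 226 ± 10.4 CPM in the controls, 220 ± 5.63 at 2.5 µM and 114 ± 4.20 at 5 µM (SD, n = 4), a fall of 0.99 ± 0.05 (SE) on the log2 scale at 5 µM. PCBP1 went from 403 to 377 and 294 CPM, and its fall at 5 µM was smaller, at -0.46 ± 0.04. HERC2, a ubiquitin ligase reported to act on NCOA4 and on the FBXL5 protein, fell at each dose, from 188 to 148 and 92.6 CPM. FTMT, mitochondrial ferritin, held 0 counts.

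In the hepcidin axis, the signalling that sets the production of the iron hormone, 13 of 16 genes were tested, and at 5 µM 10 rose and 2 fell, with a median of 0.51. NEO1, a co-receptor that binds hemojuvelin, rose at each dose, from 25.1 ± 1.81 to 58.5 ± 2.56 and 137 ± 11.6 CPM (SD, n = 4). Its log2 fold change at 5 µM was 2.46 ± 0.07 (SE, edgeR adjusted p = 4.50e-26). SMAD7 and SMAD6, inhibitors of BMP and TGF-beta signalling, also rose. SMAD7 was at 41.5, 59.6 and 76.5 CPM, and SMAD6 was at 28.0, 63.3 and 57.2 CPM, highest at 2.5 µM. HAMP, which encodes hepcidin itself, held 2 counts over all libraries, HJV 25 and TMPRSS6 7. The RNA for the end product of the axis was thus at or near 0 in all groups, and no fold is given for it. Most of the genes tested here also serve BMP signalling outside iron handling.

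**Figure D4:**
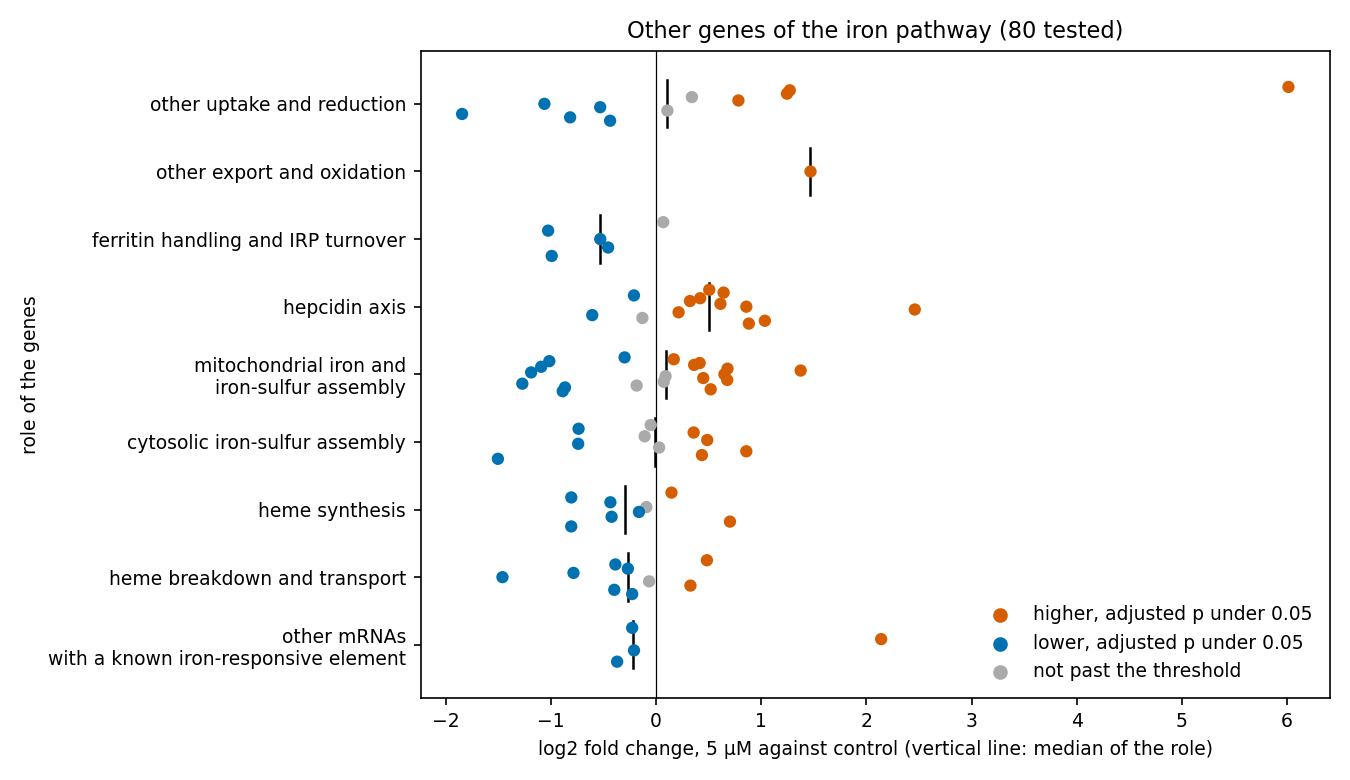
Log2 fold change at 5 µM against control (horizontal axis) of the 80 tested genes of the iron pathway list, in 1 row per role, with 1 point per gene, colour for the edgeR call and a vertical line at the median of the role. The hepcidin axis has 10 of 13 genes higher and ferritin handling 4 of 5 lower, beside 38.7% and 39.4% of all genes tested. The largest increase, 6.01, is CUBN in the uptake row.

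Mitochondrial iron and iron-sulfur assembly was split, with 9 of 19 tested genes higher and 7 lower at 5 µM. The 3 with the smallest p all fell at each dose. HSPA9, the mitochondrial chaperone of the pathway, went from 1077 ± 17.1 to 791 ± 13.0 and 473 ± 17 CPM (SD, n = 4), and its log2 fold change at 5 µM was -1.19 ± 0.04. NFS1, the cysteine desulfurase that supplies sulfur, went from 87.4 to 61.9 and 36.3 CPM. BOLA3, which helps pass clusters to their targets, went from 61.6 to 45.1 and 30.5 CPM. FDX2, a ferredoxin of the pathway, held 17 counts and was not tested.

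In cytosolic iron-sulfur assembly, 4 of 10 genes rose and 3 fell at 5 µM. NUBP2, a scaffold protein, fell from 107 ± 4.71 to 45.4 ± 4.92 CPM at 2.5 µM and to 37.9 ± 4.18 at 5 µM (SD, n = 4). GLRX3, a glutaredoxin that carries clusters, went from 130 to 113 and 77.9 CPM. CIAO2A, which is known to deliver the cluster to ACO1 and to stabilise IREB2, was at 117 ± 6.03 CPM in the controls, 116 ± 6.86 at 2.5 µM and 70.6 ± 6.09 at 5 µM (SD, n = 4). Its level was lower at 5 µM, by 0.74 ± 0.06 (SE) on the log2 scale. A link to the levels of ACO1 and IREB2, also lower there, was not tested.

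In heme synthesis 2 of 8 tested genes rose and 5 fell at 5 µM, with a median of -0.29. ALAS1, the first and rate-limiting enzyme of the pathway in liver, fell from 90.5 ± 8.30 to 74.5 ± 3.59 and 51.7 ± 2.30 CPM (SD, n = 4), and UROS from 86.8 to 57.1 and 49.6 CPM. UROD, the enzyme after UROS, rose from 81.9 to 108 and 133 CPM. ALAS2, the erythroid form of the first enzyme, held 0 counts.

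In heme breakdown and transport 2 of 9 tested genes rose and 6 fell at 5 µM, with a median of -0.27. The heme exporter FLVCR1 fell from 38.8 to 27.3 and 22.6 CPM. Its relative FLVCR2 fell from 13.7 ± 1.23 to 4.78 ± 0.382 CPM at 2.5 µM and was at 4.96 ± 0.123 at 5 µM (SD, n = 4). SLC46A1, a transporter of folate and heme, fell from 87.1 to 72.3 and 66.1 CPM. The heme scavenger HPX held 36 counts in all and HP, the hemoglobin scavenger, held 0.

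Of the 4 other mRNAs reported to carry an iron-responsive element, CDC14A, a phosphatase of the cell cycle, rose from 2.54 ± 0.594 to 7.46 ± 0.228 and 11.2 ± 1.55 CPM (SD, n = 4). EPAS1, which encodes HIF-2 alpha, was at 391, 378 and 303 CPM and fell at 5 µM by 0.37 ± 0.05 (SE) on the log2 scale. The hairpin pattern searched above was found in CDC14A and not in EPAS1 or CDC42BPA.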

How the data were processed

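The deposited values were raw read counts by Ensembl gene in 12 libraries. The submitters' processing notes name featureCounts 1.4.6, edgeR 3.8.6, STAR 2.4.1d, Bowtie2 2.2.4, cutadapt 1.7.1, bedtools 2.17.0, Cufflinks 2.1.1, SAMtools 1.1 and the build GRCh37, without their roles. How strand and reads with several matches were treated, and the annotation release, is not given in the sources used here. For overlapping, antisense and near-identical genes the reads can therefore not be told apart. Symbols were looked up by identifier in GENCODE 29 (GRCh38) for 51989 of 63152 rows, which held 99.3% of the counts.

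The members and gene lists were chosen with earlier results of these data known. All 12 libraries entered 1 fit in edgeR 4.0.16 (R 4.3.3; filterByExpr, TMM, robust glmQLFit, glmQLFTest) with the 3 groups as terms (residual degrees of freedom: 9). Benjamini-Hochberg adjustment ran over the 16839 genes tested, with 0.05 as the threshold. The SE is taken from the quasi-likelihood F, as the size of the log2 fold change over the root of F. Of the other iron genes, the rule names per role the 3 with the smallest p at 5 µM and up to 3 not tested; some are not reported here. The steps were also run on simulated counts with known changes in a small part of the genes. That run does not test the scaling where most genes are past the threshold, as at 5 µM here. No 2 libraries held identical counts, and replicates differed by more than sampling noise, at 1.72 to 5.75 in chi-square per degree of freedom. PCR copies were not marked, so intervals and floors cover counting error only. Alternatives were 3 other scalings, no low count filter, DESeq2 1.42.0, fits of 2 groups, a replicate block, each library left out and pseudogene counts added.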

Additional observations from a re-analysis of the deposited data

Results flagged for a closer look

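In the 24 sets of 4 libraries in which an iron gene had counts (each gene in each group), the highest or lowest library was checked for a gap to the others over 0.829 of the group's range, a test that flags about 1 set in 20 by chance. It picked out 2. SLC11A2 stood at 98.2 CPM in the third 2.5 µM library, while the other 3 were at 88.6 to 89.8 CPM, a gap of 0.868 of the range. SLC40A1 stood at 0.154 CPM in the same library, which is 2 counts, while the others were at 0. With the others at 0 the gap is the whole range whatever the value. The rate of about 1 in 20 therefore does not apply to that set.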

How the results depend on the processing

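The number of iron pathway genes past the threshold was 68 at 5 µM (66 to 70 over 19 alternatives), 57 at 2.5 µM (54 to 60) and 65 from 2.5 to 5 µM (56 to 67). For the members, with TF counted although it passed the filter only through its 5 µM libraries, it was 7 (7 to 8), 6 (5 to 7) and 7 (6 to 8). Of 461 alternative values of members' log2 fold changes, 431 kept direction and side of the threshold, 19 passed it newly, 2 were lost and 9 changed sign. All 9 were FTL at 5 µM against control, which was -0.00664 with no low count filter, -0.00512 with its pseudogene counts added, and -0.0474 to 0.0225 with 1 library left out. The cause was not tested. The 2 lost were STEAP3 from 2.5 to 5 µM. TF at 2.5 µM has no value in the fit of the 2 groups alone, where it was filtered out. With the replicate block the pathway counts were 67, 57 and 64, and the member counts stayed at 7, 6 and 7. Replicate numbers did not pair the libraries: deviations of same-numbered libraries correlated at -0.189 to 0.110, and 2 of 12 libraries correlated best with their own number. Low counts limit TF in the controls, SLC40A1 and the hepcidin gene.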

Other observations

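Chosen after its values were seen, HMOX1, which encodes the heme oxygenase that frees iron from heme, had the same pattern of calls as FTL. It was at 60.8 ± 6.37 CPM in the controls, 29.9 ± 2.11 at 2.5 µM and 58.0 ± 1.96 at 5 µM (SD, n = 4). It fell by 1.02 ± 0.07 (SE) on the log2 scale at 2.5 µM (edgeR adjusted p = 2.46e-14) and was 0.95 ± 0.07 higher from there to 5 µM (edgeR adjusted p = 8.14e-14), with no overlap in either case. At 5 µM against control its difference was -0.07 ± 0.07 (edgeR adjusted p = 0.366), and the groups overlapped. FBXL5, which encodes the iron-sensing subunit of the ligase that degrades IREB2, had the opposite pattern, also noticed after the fact. It was at 38.3 ± 1.91, 46.8 ± 2.68 and 40.2 ± 1.99 CPM (SD, n = 4). It rose by 0.29 ± 0.06 at 2.5 µM (edgeR adjusted p = 0.000233) and fell by 0.22 ± 0.06 from there to 5 µM (edgeR adjusted p = 0.00270). Of 16839 genes tested, 456 (2.71%) had the pattern of FTL and HMOX1 and 610 (3.62%) that of FBXL5.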
